A study of Mus musculus with 48 samples.

Results

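Hepcidin and 8 other genes of iron handling were followed in the livers of mice with and without p110α in hepatocytes. The genes were Hamp and its neighbour Hamp2, the ligand Bmp6, the BMP target genes Id1 and Smad7, the transferrin receptors Tfrc and Tfr2, the iron exporter Slc40a1 and the protease Tmprss6. They are 9 of the 37074 genes named on the array and were found by gene symbol, which gave 14 of its 56605 probes. All 9 genes and all 14 probes passed the filter on dim probes, as did 20484 genes in all. They were chosen by their signals in these data, because Hamp came close to background in several p110α hep-/- livers from the high-fat diet (HFD). The values of Hamp and Hamp2 on those arrays are therefore given as a description with no test, and the tests concern the other 7 genes and the other groups. All 8 groups share 1 estimate of the spread in the fit, so the wide spread of Hamp and Hamp2 on those arrays still enters the standard errors, intervals and p-values of their tests in the other groups. Beside these tests the adjusted p of a fit with only the groups compared is therefore given.

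RNA came from 48 livers of male mice, 8 groups of 6, and each liver had an Agilent array of its own (48 in all, 1 colour). Mice labelled p110α hep-/- carried floxed p110α (Pik3ca) alleles and 1 copy of the albumin-Cre transgene, which acts in hepatocytes. The other cells of the liver are meant to keep the gene, which was not checked here. Their floxed littermates without Cre, labelled p110α hep+/+, were the controls, so every group carried the floxed alleles. From 12 weeks of age each genotype received a control diet (D12450J) or an HFD (D12492, 60% of energy from fat) for 12 weeks. Mice were killed at zeitgeber time 16 h, either fed or after 24 h of fasting. The place of the Pik3ca probe relative to the deleted part of the gene was not analysed here. The probe gives no check of the deletion, and the genotypes are as labelled. Its mean log2 signals in p110α hep-/- and p110α hep+/+ mice were 13.23 and 12.89 fed and 13.42 and 13.32 fasted on control diet. On HFD they were 13.32 and 12.74 fed and 13.5 and 13.25 fasted, so the signal was not lower in p110α hep-/- mice.

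Hepcidin, the product of Hamp, is a peptide hormone made by hepatocytes. It binds ferroportin, the iron exporter encoded by Slc40a1, and causes its degradation, so that less iron enters the blood from the gut and from macrophages. Its transcription is driven by BMP6, a ligand made mainly by the endothelial cells of the liver when iron is plentiful, through SMAD proteins that also raise Id1 and Smad7, and by inflammation through STAT3. Tmprss6 encodes a hepatocyte protease that lowers this signal, and Tfr2 encodes a sensor of iron-loaded transferrin that raises it. Tfrc encodes the receptor that takes up transferrin iron, and its mRNA is stabilised by the iron regulatory proteins when the cell is short of iron.

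Hamp and Hamp2 are close copies next to each other, so the probes and the sequences in front of the genes are shown. Whether either probe also binds RNA of the other gene was not tested. In the mm9 build used by the array, the Hamp probe lies at chr7:31727490-31727549 and the Hamp2 probe at chr7:31707520-31707579, both on the minus strand. Aligned without gaps at an offset of 1 base, they share 42 of 59 bases (71.2%), and capitals mark the 17 bases that differ.
Hamp probe: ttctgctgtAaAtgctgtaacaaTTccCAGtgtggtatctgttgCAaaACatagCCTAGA
Hamp2 probe: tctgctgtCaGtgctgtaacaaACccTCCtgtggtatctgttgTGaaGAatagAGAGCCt

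The 250 bases in front of the start of each gene were taken from RefSeq (GRCm38.p6), at chr7:30944030-30944279 for Hamp and chr7:30924182-30924431 for Hamp2, minus strand. They are shown because the genes are close copies whose signals were low on many of the same arrays. In the sequences, 227 of 247 aligned bases (91.9%) are identical.
Hamp: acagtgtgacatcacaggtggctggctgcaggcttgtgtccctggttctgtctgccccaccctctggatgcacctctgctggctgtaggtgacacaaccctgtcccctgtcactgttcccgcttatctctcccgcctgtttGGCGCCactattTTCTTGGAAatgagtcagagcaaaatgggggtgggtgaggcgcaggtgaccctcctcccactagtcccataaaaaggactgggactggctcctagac
Hamp2: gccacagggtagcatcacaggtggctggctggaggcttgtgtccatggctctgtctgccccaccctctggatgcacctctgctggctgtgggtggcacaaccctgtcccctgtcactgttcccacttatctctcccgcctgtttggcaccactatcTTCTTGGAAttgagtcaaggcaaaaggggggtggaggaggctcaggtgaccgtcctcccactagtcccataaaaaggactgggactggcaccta
Capitals mark 2 motifs that were searched for on both strands, GGCGCC, the core of a BMP-responsive element, and TTCNNNGAA, the STAT element. The Hamp sequence held GGCGCC at −109 to −104 from the start and TTCNNNGAA at −97 to −89. The Hamp2 sequence held TTCNNNGAA at −94 to −86 and, in the place of the first motif, GGCACC, which is the change G4A counted from the first base of the motif. Among 27025 promoters of this kind, 9.54% held GGCGCC and 7.18% held TTCNNNGAA. The FOXO motif GTAAACA was in neither sequence and in 3.09% of all promoters. Of the other members found in the table, Tfrc held GGCGCC, and Bmp6 and Tfr2 held none of the 3 motifs. Id1, Smad7, Slc40a1 and Tmprss6 were not looked at here.

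Between 50.1% and 57.4% of the probes were well above background on an array, and no spot was saturated. Hepatocyte markers were bright on all arrays, with a log2 summed signal of 20.48 to 20.67. Over all genes, 2 arrays lay nearer to the mean of another group than to their own, replicate 2 of fed p110α hep+/+ mice on control diet and replicate 3 of fed p110α hep-/- mice on HFD, both nearest to fed p110α hep-/- mice on control diet. The second had the lowest weight of all arrays in the fit (0.349). Signals below are log2 normalised signals and differences are log2 differences fitted with these weights, so they can differ from the differences of plain means, which are given beside some Hamp and Hamp2 values. Calls used limma and the brightest probe of each gene, with an adjusted p of at most 0.05. Levels are not compared between genes, and in whole liver fewer cells of a type and less RNA per cell cannot be told apart.

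Hamp was high in every mouse on control diet and lower in the control genotype on HFD. In fed p110α hep+/+ mice the lowest, median and highest signals were 15.41, 15.93 and 16.66 on control diet. On HFD they were 11.14, 12.68 and 13.82. The groups did not overlap, and the fitted difference was −3.37 (SE 1.1, 10.4-fold lower, adjusted p = 0.0234, or 0.000467 with only the groups compared). In fasted p110α hep+/+ mice on control diet the signals ran from 15.27 over a median of 15.75 to 16.24. Those of the fasted mice on HFD were 6.45, 14.29, 10.65, 13.76, 7.4 and 12.16 in replicates 1 to 6. Every fasted mouse on HFD lay below every fasted mouse on control diet, and the difference was −4.33 (SE 1.12, 20.2-fold lower, adjusted p = 0.00617, or 0.0235 with only the groups compared). Without 1 array the fasted value lay between −5.17, without replicate 2 on HFD, and −3.69, without replicate 1 on HFD, and was called each time. The call in fed mice did not survive without any 1 of 3 arrays, with an adjusted p of 0.0512 without replicate 2 and 0.0701 without replicate 6 of the mice on HFD and 0.0536 without replicate 3 of those on control diet. Within the 2 washing batches the fed difference was −3.33 and −3.19 with adjusted p of 0.312 and 0.134, and the fasted difference was −3.98 and −4.61, with adjusted p of 0.245 and 0.0324. Each washing batch held only part of the mice of every group. A call is therefore harder to reach within a batch, here and below, whatever the size of the difference.

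In p110α hep-/- mice on HFD the Hamp signal reached background on some arrays and stayed near the level of control diet on others. Fed mice gave 7.95, 6.4, 14.86, 5.15, 4.88 and 6.24 in replicates 1 to 6. Fasted mice gave 5.02, 4.93, 4.89, 16.06, 8.88 and 6.05. Of these 12 arrays, 7 were well above background, and the 5 that were not had signals up to 5.15, while the lowest signal above background was 6.05. The lowest signal that any probe well above background had on an array was between 5.07 and 5.57, so the dim arrays give only an upper bound on Hamp. Replicate 3 of the fed mice and replicate 4 of the fasted mice stood apart, since the next highest arrays of their groups were at 7.95 and 8.88.

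The p110α hep-/- mice on control diet had Hamp signals from 15.1 to 16.43 fed, median 15.64, and from 14.57 to 16.42 fasted, median 15.87. Fed mice on HFD all lay below the fed mice on control diet, and the fitted difference was −8.9, or −7.96 from plain means with dim arrays set to the lowest signal above background. In fasted mice 1 array on HFD lay within the range of control diet, and the fitted difference was −8.26, or −7.92 from plain means with dim arrays at that floor. The fitted value was −10.01 without that array, and 3 of the 5 arrays then left on HFD give only an upper bound. Against p110α hep+/+ mice on HFD, the fitted difference of the p110α hep-/- mice was −6 in the fed state, where 2 of 6 arrays give only a bound, and −3.86 in the fasted state, where 3 of 6 do. From plain means with dim arrays at the floor they were −4.92 and −2.97, and the groups overlapped in both. Without replicate 3 the fitted fed value was −6.58. The fitted fasted value was −5.61 without replicate 4, and −1.25 and −6.28 within the 2 washing batches. On control diet Hamp did not pass the test between the genotypes, with −0.47 fed (95% interval −2.82 to 1.87, adjusted p = 0.825) and 0.07 fasted (−2.19 to 2.32, adjusted p = 0.976). These wide intervals carry the spread of the p110α hep-/- arrays on HFD, and with only the groups compared the adjusted p was 0.256 fed and 0.899 fasted.

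Hamp2, which lies beside Hamp and encodes a related peptide, was not called on HFD in control mice. Its signals in fed p110α hep+/+ mice were 12.1, 13.49 and 15.11 (lowest, median, highest) on control diet and 13.05, 13.87 and 14.5 on HFD. The difference was 0.25 (95% interval −1.37 to 1.86, adjusted p = 0.864, or 0.736 with only the groups compared). In the fasted state the difference was −0.59 (−2.22 to 1.04, adjusted p = 0.666, or 0.678 with only the groups compared), and within the 2 washing batches it was −1.74 and 0.48. In p110α hep-/- mice on HFD, Hamp2 gave 7.67, 7.8, 13.28, 6.97, 7.18 and 8.13 in the fed replicates, all below the lowest fed signal on control diet, 13.63. The fasted replicates gave 5.64, 5.96, 5.68, 12.22, 11.16 and 6.99, against 9.75 to 12.44 on control diet. The arrays that were high for Hamp, fed replicate 3 and fasted replicate 4, were also the highest for Hamp2. As a description, the fitted differences between HFD and control diet were −6.38 fed and −3.39 fasted, and −5.69 and −3.09 from plain means. The fasted value lay between −4.34, without replicate 4 on HFD, and −2.71, without replicate 2 on HFD, and was −1.62 and −5.05 within washing batches 1 and 2. All 12 arrays were well above background for Hamp2.

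Fasting lowered Hamp2 in 2 of the 3 comparisons that could be tested. In p110α hep-/- mice on control diet, Hamp2 was between 13.63 and 14.99 fed and between 9.75 and 12.44 fasted, and the groups did not overlap. The difference was −3.14 (SE 0.83, 8.8-fold lower, adjusted p = 0.00275, or 9.97e-05 with only the groups compared). It was −2.55 in p110α hep+/+ mice on HFD (SE 0.79, 5.87-fold lower, adjusted p = 0.0127, or 0.0281 with only the groups compared), and without replicate 1 of the fasted mice, whose signal was 6.51, it was −1.88 with an adjusted p of 0.0507. The −1.72 of p110α hep+/+ mice on control diet did not pass the test (adjusted p = 0.108), but it was called in the fit of only the groups compared (−1.71, adjusted p = 0.0202). The Hamp differences with fasting in the same 3 comparisons were 0.18, −1.32 and −0.36, with adjusted p of 0.928, 0.405 and 0.845, or 0.71, 0.443 and 0.254 with only the groups compared. Whether Hamp and Hamp2 differed in their response to HFD or to fasting was not tested.

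**Figure D1:**
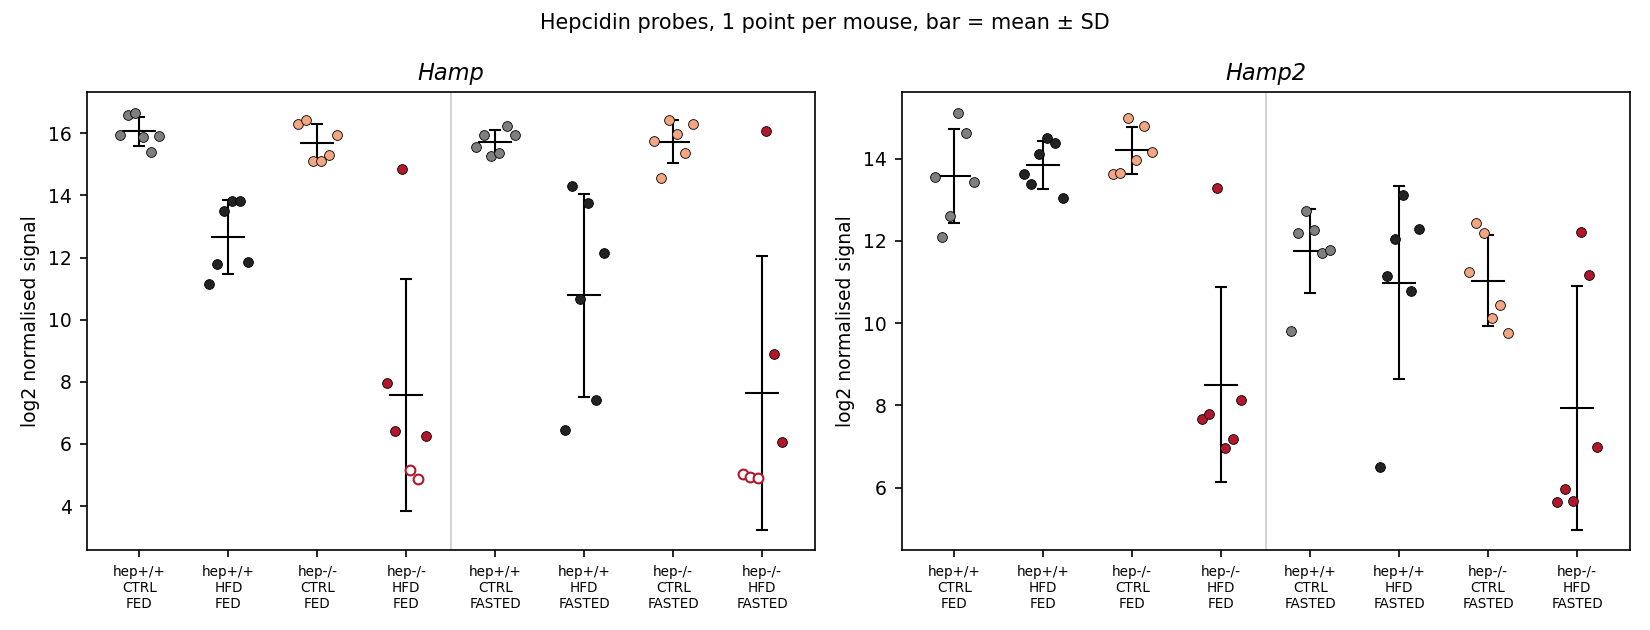
Hamp and Hamp2 in each of the 48 livers. The vertical axis is the log2 normalised signal, each point is 1 mouse, bars are mean ± SD, the 8 groups of 6 are on the horizontal axis, and open points were not well above background. Hamp in p110α hep-/- mice on HFD was not well above background on 2 of 6 fed and 3 of 6 fasted arrays and reached 14.86 (fed) and 16.06 (fasted) on single arrays, while Hamp2 in fed p110α hep+/+ mice spans 12.1 to 15.11 on control diet and 13.05 to 14.5 on HFD.

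Among the other 7 genes, HFD lowered Bmp6 and Id1 and raised Tfrc in all 4 comparisons. The fed p110α hep+/+ mice had 5 of the 7 called, Bmp6, Id1, Smad7 and Slc40a1 lower and Tfrc higher, while 23.9% of all genes tested were called. Fasted p110α hep+/+ mice had 4 of the 7 called, the same genes but for Slc40a1, against 16% of all genes. In p110α hep-/- mice 3 of the 7 were called in each state, Bmp6, Id1 and Tfrc, against 12.3% of all genes fed and 10.8% fasted. With a fold over 1.5 asked for as well, 4, 3, 2 and 3 of the 7 were called in fed and fasted p110α hep+/+ and fed and fasted p110α hep-/- mice, against 3.71%, 2.82%, 2.34% and 1.89% of all genes. The median difference over the 7 genes was −0.54, −0.25, −0.24 and −0.04 in fed and fasted p110α hep+/+ and fed and fasted p110α hep-/- mice, and over all genes it was between −0.02 and 0.

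Bmp6, the ligand of the pathway, was lower on HFD in all 4 comparisons. In fed p110α hep+/+ mice the signals were 6.64, 6.87 and 7.18 (lowest, median, highest) on control diet and 5.98, 6.12 and 6.4 on HFD. The groups did not overlap, and the difference was −0.76 (SE 0.11, 1.69-fold lower, adjusted p = 1.1e-06). In fasted p110α hep+/+ mice the signals fell from between 6.61 and 7.22 to between 6.12 and 6.6, again without overlap, by 0.56 on the log2 scale (adjusted p = 0.000317). Fasted p110α hep-/- mice showed a drop of like size, from between 6.85 and 7.18 to between 6.13 and 6.73 (−0.72, SE 0.12, adjusted p = 3.39e-05). The fed p110α hep-/- mice gave the smallest difference, −0.38 (SE 0.12, adjusted p = 0.0262), with overlap between 6.55 to 7.01 and 6.18 to 6.77. That call was lost without any 1 of 5 arrays, replicates 4, 5 and 6 on HFD and 4 and 5 on control diet, with an adjusted p of up to 0.0758. The difference between the genotypes in the response of Bmp6 in the fed state was 0.38 (95% interval 0.06 to 0.69) and did not pass the test (adjusted p = 0.196). Within washing batches 1 and 2 Bmp6 gave −0.63 and −0.84 in fed and −0.33 and −0.8 in fasted p110α hep+/+ mice, and −0.34 and −0.46 in fed and −0.58 and −0.82 in fasted p110α hep-/- mice. The calls were lost in batch 1 for both fasted comparisons (adjusted p = 0.231 and 0.0761) and in both batches for fed p110α hep-/- mice (adjusted p = 0.14 and 0.218). The Bmp6 probe lies at chr13:38591479-38591538 (mm9).

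Markers of the endothelial cells that make BMP6 moved in both directions. All 8 sinusoidal endothelial markers listed were kept. With HFD 1 rose and none fell in fed p110α hep+/+ mice, 1 higher and 3 lower in fed p110α hep-/- mice, 3 lower in fasted p110α hep+/+ mice and 1 higher in fasted p110α hep-/- mice, against 23.9%, 12.3%, 16% and 10.8% of all genes called. Their log2 summed signal in fed p110α hep+/+ mice was between 14.07 and 14.44 on control diet, median 14.33, and between 13.98 and 14.36 on HFD, median 14.27. In fasted p110α hep+/+ mice it was between 14.02 and 14.42, median 14.25, and between 13.83 and 14.46, median 13.98. The medians on control diet and HFD were 14.49 and 14.3 in fed and 14.52 and 14.46 in fasted p110α hep-/- mice. The part of these cells in the Bmp6 result was not tested.

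Id1, a direct target of BMP signalling that encodes an inhibitor of DNA binding, fell on HFD in all 4 comparisons. In fed p110α hep+/+ mice the signals were 8.65, 9.36 and 10.39 on control diet and 7.8, 8.16 and 8.9 on HFD, with overlap of the groups. The difference was −1.28 (SE 0.27, 2.43-fold lower, adjusted p = 0.000455). Fasted p110α hep+/+ mice gave −1.22 (SE 0.27, adjusted p = 0.00156). Those of p110α hep-/- mice were −1.09 fed (SE 0.3, adjusted p = 0.0103) and −1.54 fasted (SE 0.29, adjusted p = 0.000305). The highest Id1 signals on HFD in the 2 p110α hep-/- groups, 9.01 and 9.9, came from the arrays that were also highest for Hamp, and without them the differences were −1.18 and −1.78. Within washing batches 1 and 2 the Id1 differences were −1.37 and −1.41 in fed and −1.06 and −1.42 in fasted p110α hep+/+ mice, and −1.29 and −0.69 in fed and −1.05 and −1.94 in fasted p110α hep-/- mice. The calls were lost in batch 1 for both fasted comparisons (adjusted p = 0.146 and 0.273) and in batch 2 for fed p110α hep-/- mice (adjusted p = 0.527). The Id1 probe lies at chr2:152563083-152563142 (mm9).

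Smad7, which encodes an inhibitory SMAD and is itself induced by BMP signalling, fell on HFD in p110α hep+/+ mice. The signals of the fasted mice were 7.84, 8.06 and 8.15 on control diet and 7.1, 7.39 and 7.5 on HFD, without overlap, and the difference was −0.67 (SE 0.14, adjusted p = 0.000896). The fed mice gave −0.62 (SE 0.14, adjusted p = 0.000946). A second, dimmer probe gave −0.42 and −0.41, also called, but on HFD only 3 of 6 fasted and 4 of 6 fed arrays had it clearly over background, which limits these values. Within washing batches 1 and 2 the main probe gave −0.51 and −0.8 fasted (adjusted p = 0.14 and 0.0383) and −0.67 and −0.66 fed (adjusted p = 0.0376 and 0.0851). Without p110α the differences were −0.26 fed (95% interval −0.57 to 0.05) and −0.23 fasted (−0.54 to 0.07), and neither passed the test. The responses of the genotypes differed by 0.36 fed (adjusted p = 0.379) and 0.43 fasted (adjusted p = 0.223), so a difference between the genotypes in Smad7 was not shown.

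Tfrc, the transferrin receptor, rose on HFD in all 4 comparisons. In fed p110α hep+/+ mice the signals were 7.79, 8.18 and 8.78 on control diet and 9.3, 9.69 and 10.1 on HFD, without overlap, and the difference was 1.47 (SE 0.28, 2.76-fold higher, adjusted p = 0.000118). The fasted p110α hep+/+ mice had 6.75, 7.42 and 8.12 on control diet and 8.46, 9.37 and 9.71 on HFD, a difference of 1.73 (SE 0.28, 3.31-fold, adjusted p = 3.13e-05). The rise in p110α hep-/- mice was 4.25-fold fed (2.09, SE 0.31, adjusted p = 4.1e-06) and 4.44-fold fasted (2.15, SE 0.3, adjusted p = 3.35e-06). The lowest arrays on HFD in these groups, 7.72 and 8.26, were fed replicate 3 and fasted replicate 4, the arrays with high Hamp. Without them the differences were 2.25 and 2.43. The genotypes did not differ in this response by the test, with 0.62 fed (95% interval −0.21 to 1.45) and 0.42 fasted (−0.41 to 1.26). Within either washing batch Tfrc was between 1.39 and 2.57 higher on HFD, and the call was lost in batch 1 for fasted p110α hep-/- mice (1.62, adjusted p = 0.0922). The main probe lies at chr16:32632255-32632314 and the second at chr16:32620470-32620529 (mm9), and the second gave 1.26, 1.32, 1.82 and 1.63 in fed and fasted p110α hep+/+ and fed and fasted p110α hep-/- mice, all called.

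Red cell precursors also carry much Tfrc, and their markers were measured beside it. Of 8 erythroid markers 6 were kept. On HFD none was higher and 1 was lower in fed p110α hep+/+ mice, and none was called in fed p110α hep-/- mice. In the fasted state 1 was higher in p110α hep+/+ mice and 4 were higher in p110α hep-/- mice. Of all genes 23.9% and 12.3% were called in fed p110α hep+/+ and p110α hep-/- mice and 16% and 10.8% in the fasted state. The median difference over the 6 was 0.06 and 0.52 in fed and fasted p110α hep+/+ mice and 0.13 and 0.8 in fed and fasted p110α hep-/- mice. The log2 summed signal of fed p110α hep+/+ mice was between 17.17 and 18.12 on control diet and between 17.78 and 18.5 on HFD, and in the fasted state between 16.64 and 17.97 and between 17.38 and 18.58. That of fed p110α hep-/- mice was between 17.25 and 18.18 and between 17.58 and 18.55, and in the fasted state between 16.74 and 17.65 and between 16.9 and 18.66. The part of these cells in the Tfrc result was not tested.

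**Figure D2:**
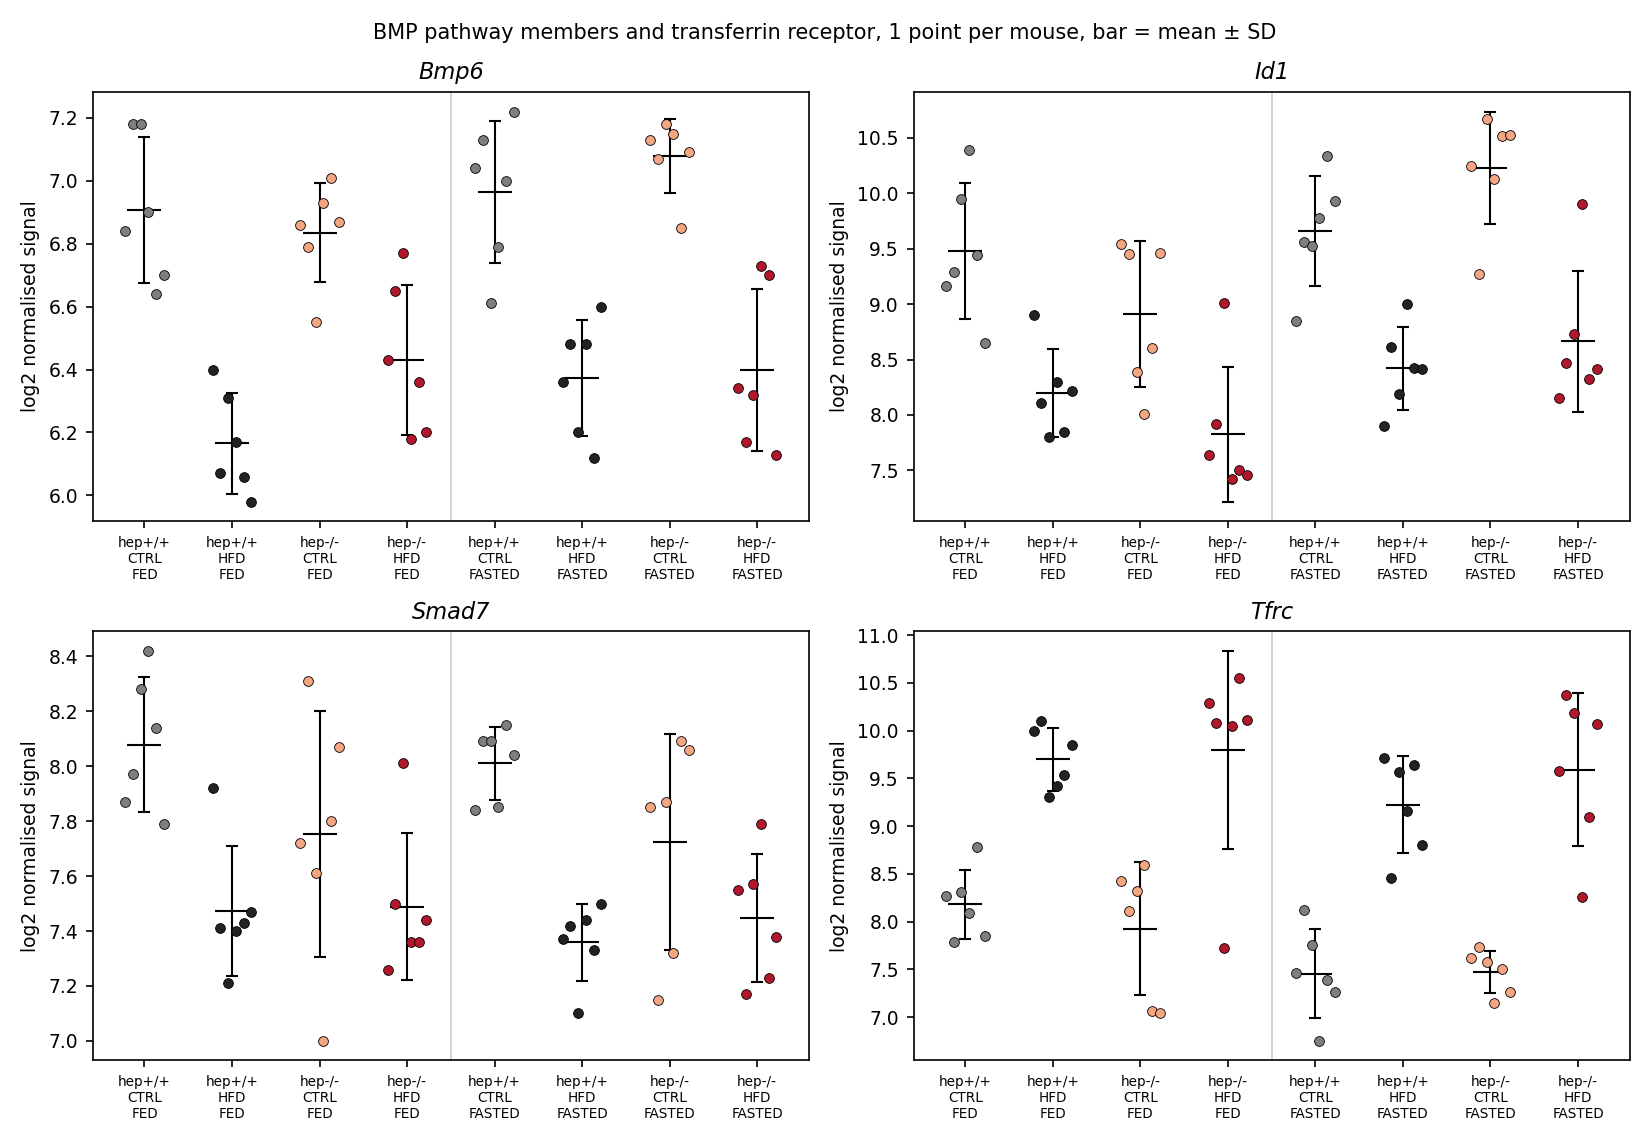
Bmp6, Id1, Smad7 and Tfrc in each liver. The vertical axis of each panel is the log2 normalised signal of 1 gene, points are mice, bars are mean ± SD and the 8 groups of 6 are on the horizontal axis. Tfrc on HFD lies above control diet without overlap in 3 of the 4 comparisons, with 1 fed p110α hep-/- mouse at 7.72.

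**Figure D3:**
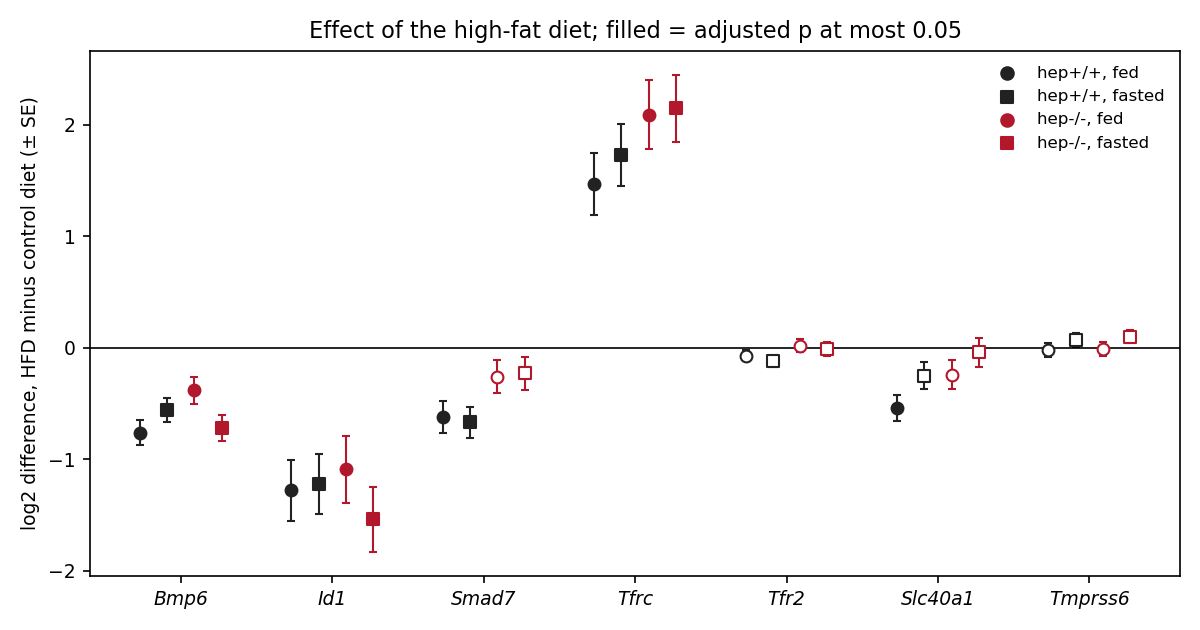
Log2 difference between HFD and control diet for the 7 genes on the vertical axis, with its standard error, in the 4 combinations of genotype and nutritional state. Filled points had an adjusted p of at most 0.05. Tfrc lies between 1.47 and 2.15, Id1 between −1.54 and −1.09, and Tfr2 and Tmprss6 lie near 0.

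Tfr2 and Tmprss6, which act on the hepcidin signal at the hepatocyte surface, were not called on HFD in any of the 4 comparisons by their brightest probes. Tfr2 differences were between −0.12 and 0.02 and Tmprss6 differences between −0.02 and 0.1. With processed signals scaled to the 75th percentile the Tfr2 differences in p110α hep+/+ mice were −0.17 fed and −0.27 fasted, both called. A dimmer Tmprss6 probe gave −0.3 in fed p110α hep+/+ mice (adjusted p = 0.0111), where the bright probe gave −0.02 (adjusted p = 0.856), so the 2 probes disagreed. Slc40a1, the iron exporter ferroportin, had signals between 12.07 and 12.73 on control diet and between 11.83 and 11.94 on HFD in fed p110α hep+/+ mice. The groups did not overlap and the difference was −0.54 (SE 0.12, 1.45-fold lower, adjusted p = 0.000911), and within washing batches 1 and 2 it was −0.4 and −0.61, neither called (adjusted p = 0.136 and 0.0719). In fed p110α hep-/-, fasted p110α hep+/+ and fasted p110α hep-/- mice the Slc40a1 differences were −0.24, −0.25 and −0.04 and did not pass the test. Signals on the 2 diets were fully apart for 3 of 7 members in fed p110α hep+/+ mice (9.51% of all genes), 3 in fasted p110α hep+/+ mice (5.86%), 0 in fed p110α hep-/- mice (3.9%) and 2 in fasted p110α hep-/- mice (4.1%).

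Tfr2 and Tmprss6 were the members called between the genotypes. On control diet 1 of the 7 was called in the fed state, Tfr2, against 21.7% of all genes, and 1 in the fasted state, Tmprss6, against 24.9%. On HFD 1 was called fed, Tfr2, against 33% of all genes, and 2 fasted, Tfr2 and Tmprss6, against 36.9%. These shares are near or below those of all genes, and the count in fed mice on control diet was 3 with normexp or with probes above background on all arrays. None of the 7 was called with a fold over 1.5, against 3.73% and 3.23% of all genes on control diet and 6.23% and 6.56% on HFD in fed and fasted mice. The genotypes did not overlap for 0 and 1 genes on control diet (6.21% and 10.3% of all genes) and for 1 and 1 on HFD (13% and 14%). Tfr2 signals in fed mice on HFD were 14.83, 14.91 and 15.02 in p110α hep+/+ and 15.23, 15.27 and 15.33 in p110α hep-/- mice, without overlap. The difference was 0.36 (SE 0.05, 1.28-fold higher, adjusted p = 1.77e-06), and a second probe gave 0.35. On control diet in the fed state it was 0.26 (SE 0.06, adjusted p = 0.000439). Tmprss6 in fasted mice on control diet was between 15.03 and 15.33 in p110α hep+/+ and between 14.77 and 15 in p110α hep-/- mice, a difference of −0.24 (SE 0.06, 1.18-fold lower, adjusted p = 0.0015). This Tmprss6 call on control diet was lost when the median over its 2 probes was used (−0.13, adjusted p = 0.143). In fasted mice on HFD the Tmprss6 difference was −0.2 (adjusted p = 0.00814). That call was lost with processed signals (−0.12, adjusted p = 0.126) and median scaling (−0.14, adjusted p = 0.0689). The second probe gave 0.1 there (adjusted p = 0.453). Tfrc was not called between the genotypes, with 0.36 fed and 0.45 fasted on HFD, the second reaching 0.74 with an adjusted p of 0.0481 without fasted replicate 4. Markers of other cell types also moved with genotype. Of 5 cholangiocyte markers 3 and 4 were lower in fed p110α hep-/- mice on control diet and HFD and 4 and 4 in the fasted state, and none was higher. Their log2 summed signal in fasted mice on control diet was between 10.5 and 11.22 in p110α hep+/+ and between 9.13 and 9.52 in p110α hep-/- mice. Of the 8 endothelial markers 2 were higher and 1 lower in fed mice on control diet, 1 and 2 in fed mice on HFD, 4 and 0 in fasted mice on control diet and 6 and 0 in fasted mice on HFD. Of 7 hepatocyte markers 3 were higher and 0 lower in fed and 3 and 1 in fasted mice on control diet. The median differences were 0.11 and 0.32. On HFD 2 were higher and 1 lower in each state, with medians of 0.25 and 0.23 in fed and fasted mice. The shares of all genes called are those given above. The part of these cells in the genotype differences was not tested.

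Fasting moved Tfr2 in all 4 comparisons and Smad7 in none, and each of the other 5 genes was called in 1 or 2. Called were 2 of 7 in p110α hep+/+ mice on control diet (32.6% of all genes), 2 on HFD (28.6%), 4 in p110α hep-/- mice on control diet (35.5%) and 3 on HFD (28.7%). With a fold over 1.5, 1 and 0 were called in p110α hep+/+ mice on control diet and HFD (5.46% and 4.72% of all genes) and 1 and 1 in p110α hep-/- mice (7.08% and 5.9%). Fed and fasted mice did not overlap for 0 and 2 genes in p110α hep+/+ mice (11.8% and 10.9%) and for 1 and 1 in p110α hep-/- mice (15.6% and 8.44%). Tfr2 signals in p110α hep+/+ mice on HFD went from between 14.83 and 15.02 fed to between 15.14 and 15.35 fasted, a difference of 0.36 (SE 0.05, adjusted p = 6.95e-07). The other Tfr2 differences were 0.4 in p110α hep+/+ mice on control diet, and 0.21 and 0.17 in p110α hep-/- mice on control diet and HFD, all called. Id1 rose with fasting in p110α hep-/- mice on control diet, from 8.01, 9.02 and 9.54 to 9.27, 10.38 and 10.67 (1.41, SE 0.28, 2.65-fold, adjusted p = 9.62e-05). The Id1 difference in p110α hep+/+ mice on control diet was 0.21 (adjusted p = 0.599). The test of the difference between the genotypes gave 1.19 (95% interval 0.4 to 1.98, adjusted p = 0.0759), and it passed without any 1 of 3 arrays, with an adjusted p down to 0.0331. Of 8 endothelial markers 0 rose and 2 fell with fasting in p110α hep+/+ mice on control diet and 0 and 4 on HFD. In p110α hep-/- mice 1 rose and 0 fell on either diet. Of 5 cholangiocyte markers 3 fell on control diet and 1 on HFD in either genotype, and none rose. Of 6 erythroid markers 1 rose and 4 fell in p110α hep-/- mice on control diet, and on HFD 1 rose in p110α hep+/+ mice. The part of these cells in the fasting results was not tested.

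The calls of smaller moves with fasting were lost without single arrays or with other processing. Tfrc was lower by fasting in p110α hep+/+ mice on control diet, by a difference of −0.78 (SE 0.28, adjusted p = 0.0331), and the call was lost without any 1 of 6 arrays, replicates 4, 5 and 6 of the fasted and 1, 3 and 5 of the fed mice, with an adjusted p of up to 0.107. In that comparison 3 of the 6 erythroid markers were lower and 1 was higher, against 32.6% of all genes called, which was not tested as a part of the result. Slc40a1 rose by 0.37 in p110α hep+/+ mice on HFD (adjusted p = 0.017), without overlap of the groups. The call was lost without replicate 2 of the fasted mice (adjusted p = 0.0613), and a dimmer second probe gave 0.04 and was not called. In p110α hep-/- mice on HFD Id1 (0.96), Tfr2 (0.17) and Slc40a1 (0.37) were called, and all 3 calls ended without fasted replicate 4, with adjusted p of 0.073, 0.057 and 0.092. The Tfr2 call also ended without fasted replicate 2 or fed replicate 2 or 5, with an adjusted p of up to 0.0751. The Slc40a1 call ended without any 1 of 7 of the 12 arrays, fasted replicates 3, 4 and 5 and fed replicates 2, 4, 5 and 6, with an adjusted p of up to 0.126, and without array weights it was 0.22 (adjusted p = 0.291). Bmp6 rose by 0.3 in p110α hep-/- mice on control diet (adjusted p = 0.0318), and the call was lost without any 1 of 5 arrays, fasted replicates 1, 2, 3 and 4 and fed replicate 3, and with the replicate number as a block (0.27, adjusted p = 0.0684). Tmprss6 fell by 0.23 on the log2 scale in the same comparison (adjusted p = 0.00166). It stayed called without any 1 array, with an adjusted p of up to 0.00723. It was −0.12 with processed signals (adjusted p = 0.0839) and −0.13 with median scaling (adjusted p = 0.103), neither called, and its second probe was not called (adjusted p = 0.0837). Of 46 interaction tests on the 9 genes that did not use the arrays the choice rested on for Hamp and Hamp2, 7 had an unadjusted p under 0.05 and 0 passed after adjustment in limma. Of all genes, 3.03% and 5.09% were called for the interaction of genotype and diet in fed and fasted mice, 3.97% and 3.49% for genotype and fasting on control diet and HFD, and 2.36% and 8% for diet and fasting with and without p110α, in that order.

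**Figure D4:**
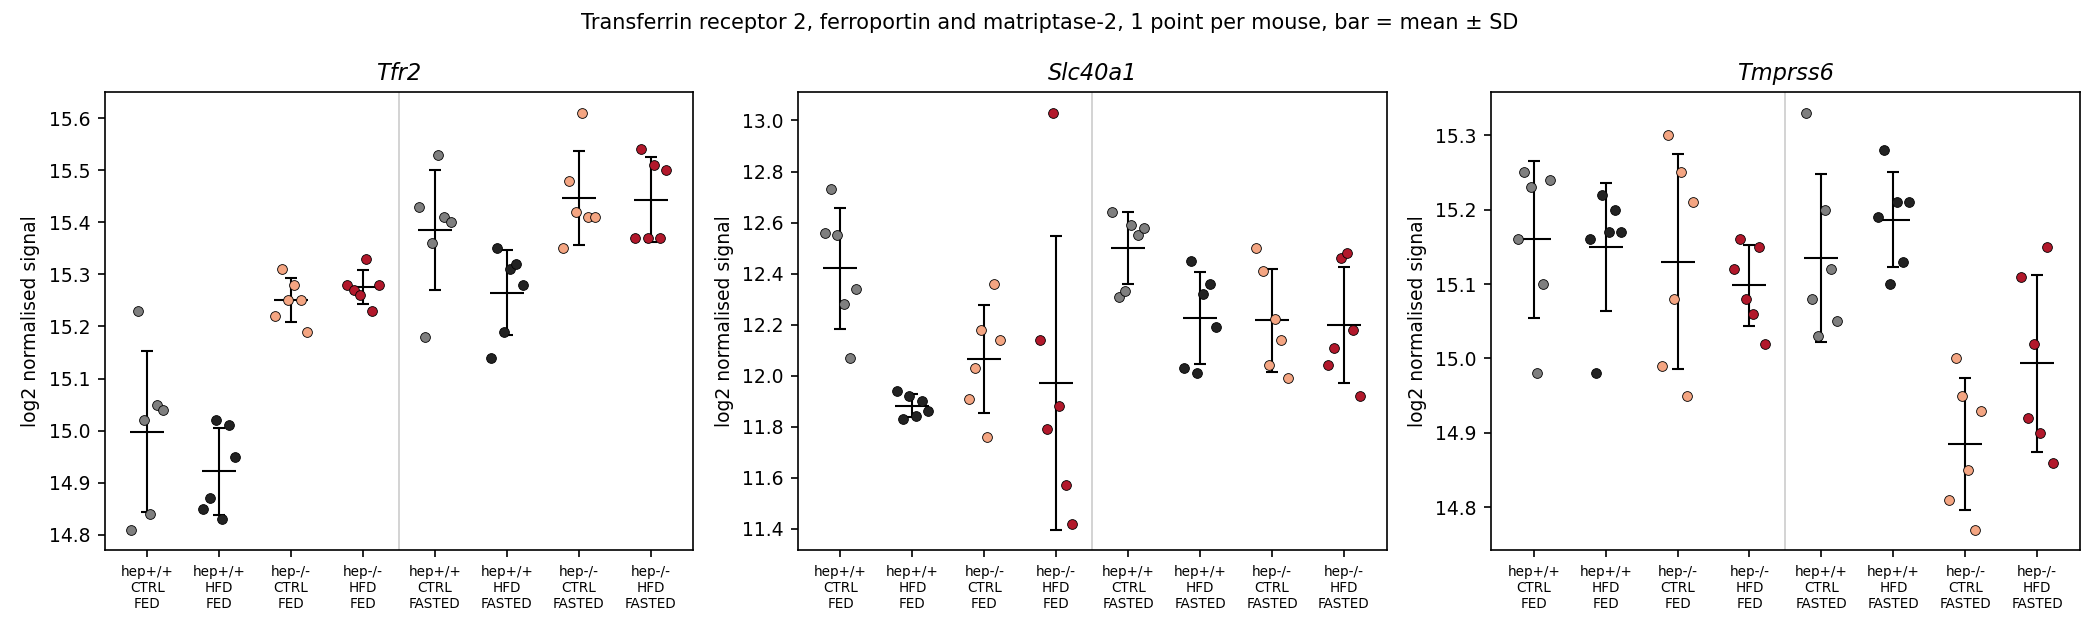
Tfr2, Slc40a1 and Tmprss6 in each liver. The vertical axis of each panel is the log2 normalised signal of 1 gene, points are mice, bars are mean ± SD and the 8 groups of 6 are on the horizontal axis. Tfr2 in fed mice on HFD separates the genotypes (at most 15.02 against at least 15.23), and Slc40a1 has 1 fed p110α hep-/- mouse on HFD at 13.03.

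Other genes of the BMP and SMAD pathway were read from a list of which 21 genes besides the members were measured. With HFD 2 rose and 6 fell in fed p110α hep+/+ mice, 1 and 7 in the fasted state, 1 and 5 in fed p110α hep-/- mice and 3 and 6 in the fasted state, where 23.9%, 16%, 12.3% and 10.8% of all genes were called. The median difference of the 21 was between −0.08 and −0.02, near that of all genes. Id3, a relative of Id1, had signals from 11.55 to 12.85 on control diet and from 10.53 to 11.09 on HFD in fed p110α hep+/+ mice (−1.58, SE 0.23, adjusted p = 1.58e-06). It fell in the other 3 comparisons too, by 1.34, 0.83 and 1.09 on the log2 scale in fed p110α hep-/-, fasted p110α hep+/+ and fasted p110α hep-/- mice. Atoh8, a BMP-responsive transcription factor, gave −0.77, −0.78, −1.15 and −0.55 in the same order, all called. Smad9, a receptor SMAD induced by BMPs, was between 6.22 and 7.52 on control diet in fed p110α hep+/+ mice and not well above background on any of the 6 arrays on HFD. It was at least 2.86-fold lower there, counted to the lowest signal above background (adjusted p = 1.11e-07 on the measured signals). Smad9 was also called lower in the other 3 comparisons, with differences of −1.35 and −0.81 in fasted p110α hep+/+ and p110α hep-/- mice, where 5 and 6 of the 6 arrays on HFD were well above background. In fed p110α hep-/- mice only 3 of the 6 arrays on HFD were, so the −1.08 measured there is limited by background. Id2 fell by 0.85 in fed and 1.26 in fasted p110α hep+/+ mice and by 1.1 in fasted p110α hep-/- mice, and its −0.45 in fed p110α hep-/- mice did not pass the test.

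Inputs of the hepcidin gene other than BMP were read from a list of transcription factors and cytokine inputs, of which 19 were measured. With HFD 1 rose and 3 fell in fed p110α hep+/+ mice, and 2 and 0, 0 and 1, and 3 and 1 in fed p110α hep-/-, fasted p110α hep+/+ and fasted p110α hep-/- mice, where 23.9%, 12.3%, 16% and 10.8% of all genes were called. Between genotypes 8 rose and 0 fell with loss of p110α in the fed state on either diet and in the fasted state on HFD, and 5 and 0 in the fasted state on control diet. The shares of all genes called there were 21.7% and 33% in fed mice on control diet and HFD, and 24.9% and 36.9% in fasted mice. With fasting 11 and 11 were higher in p110α hep+/+ mice on control diet and HFD and 10 and 7 in p110α hep-/- mice, and 0 were lower, against 32.6%, 28.6%, 35.5% and 28.7% of all genes. Socs3, a target and inhibitor of STAT3, was higher in fed p110α hep-/- mice by 1.14 on control diet (adjusted p = 0.000983) and 1.5 on HFD (adjusted p = 1.16e-05). Egfr, the receptor of EGF, was higher by 1.73 in fed p110α hep-/- mice on HFD (adjusted p = 8.56e-06). Inhbb, the subunit of activin B, rose with fasting by 2.08 in p110α hep-/- mice on control diet (adjusted p = 6.08e-12) and by 1 in p110α hep+/+ mice (adjusted p = 4.08e-05).

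Genes of iron uptake moved in both directions. Besides Tfrc and Tfr2, 11 were measured, and with HFD 4 rose and 2 fell in fed p110α hep+/+ mice, 4 and 0 fasted, 3 and 0 in fed and 1 and 1 in fasted p110α hep-/- mice, against the same shares of all genes (23.9%, 16%, 12.3% and 10.8%). Lcn2, which binds iron-carrying siderophores and rises in inflammation, was higher by 1.58 in fed and 2.23 in fasted p110α hep+/+ mice (adjusted p = 0.000233 and 3.83e-06). Between the genotypes on HFD it was lower in p110α hep-/- mice by a difference of −1.38 fed (adjusted p = 0.00112) and −1.32 fasted (adjusted p = 0.00204). Neutrophils also carry Lcn2, and of 4 neutrophil markers 2 were higher on HFD in fed and 3 in fasted p110α hep+/+ mice, with a median difference over the 4 of 0.53 and 1.02, against 23.9% and 16% of all genes called. Between the genotypes on HFD 0 of the 4 were lower fed and 3 fasted, with medians of −0.18 and −0.85, against 33% and 36.9% of all genes, and the part of these cells in the Lcn2 result was not tested. Scara5, a ferritin receptor, fell by 1.59 on the log2 scale on HFD in fed p110α hep+/+ mice (adjusted p = 4.64e-05) and rose with fasting by 2.06 on HFD in the same genotype (adjusted p = 2.2e-07). Slc11a2, the iron transporter DMT1, was higher by 0.94 on HFD in fasted p110α hep-/- mice (adjusted p = 1.45e-06).

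Among storage and haem genes, Fth1, Ftl1 and Ncoa4 are given for their role in ferritin and were chosen after their values were seen. Of 7 storage and export genes besides Slc40a1, with HFD 1 rose and 2 fell in fed and 2 and 2 in fasted p110α hep+/+ mice, 0 and 2 in fed and 2 and 0 in fasted p110α hep-/- mice. For this and the next 3 lists the shares of all genes called with HFD were 23.9% and 16% in fed and fasted p110α hep+/+ mice and 12.3% and 10.8% in fed and fasted p110α hep-/- mice. Fth1, the ferritin heavy chain, was higher by 0.41 in fed p110α hep+/+ mice on HFD (adjusted p = 4.24e-07), and Ftl1, the light chain, was not called (0.03). Between the genotypes in fed mice on HFD, Fth1 differed by −0.34 (adjusted p = 1.19e-05) and Ftl1 by −0.22 (adjusted p = 1.18e-06), both lower in p110α hep-/- mice. Ncoa4, the receptor for ferritin breakdown, was lower by a difference of −0.35 in fed p110α hep+/+ mice on HFD (adjusted p = 9e-04). Of 23 haem genes 10 rose and 1 fell with HFD in fed p110α hep+/+ mice, among them Hmox1, haem oxygenase (0.43, adjusted p = 0.00655), and 6 and 0, 4 and 0, and 3 and 1 in fed p110α hep-/-, fasted p110α hep+/+ and fasted p110α hep-/- mice. Of 5 iron regulatory genes 1 was higher in 1 comparison and 1 was lower in 3. Of 18 genes of mitochondrial iron and iron-sulphur clusters between 1 and 5 were higher and between 0 and 3 lower.

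Acute phase genes, which inflammation raises, were read from a list of which 20 were measured. With HFD 7 were higher and 3 lower in fed and 8 and 0 in fasted p110α hep+/+ mice, and 3 and 1 fed and 3 and 0 fasted in p110α hep-/- mice, against 23.9%, 16%, 12.3% and 10.8% of all genes called. The median differences of the 20 were 0.21, 0.31, 0.09 and 0.17 in that order. Orm3, an acid glycoprotein, rose by 1.64 in fed p110α hep+/+ mice (adjusted p = 4.8e-06), by 1.54 in fasted p110α hep+/+ mice (adjusted p = 4e-05) and by 1.68 in fasted p110α hep-/- mice (adjusted p = 4.02e-05). In fed p110α hep-/- mice the Orm3 difference was 0.43 and did not pass the test (adjusted p = 0.367). Between the genotypes on HFD, 8 of the 20 were higher and 8 lower in fed p110α hep-/- mice and 3 and 6 in the fasted state, and on control diet 7 and 1 fed and 5 and 2 fasted, against 33%, 36.9%, 21.7% and 24.9% of all genes called. Saa2, a serum amyloid, was lower in p110α hep-/- than in p110α hep+/+ mice on HFD, by a difference of −1.25 fed (adjusted p = 0.00902) and −1.01 fasted (adjusted p = 0.0375).

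The genes whose signal went most with Hamp over the 48 livers were found by Pearson correlation, as a description. The highest were Nr5a1 (r = 0.82), Apoa5 and Id3 (0.8 each), and Gabbr2 and Irf7 (0.77 each). The lowest were Slc16a3 (−0.88), Tfrc (−0.84), Btnl9 (−0.81), Vwf (−0.8) and Apold1 (−0.79). The livers share the same diet groups, and part of each r comes from differences between groups. After the group means were removed, r was −0.79 for Slc16a3, −0.75 for Tfrc and 0.65 for Id3, and −0.43 for Btnl9 and 0.32 for Gabbr2. Within groups Hamp spread most in p110α hep-/- mice on HFD (SD 3.73 fed and 4.4 fasted), the arrays the choice of genes rested on. Its SD was 1.19 and 3.26 in fed and fasted p110α hep+/+ mice on HFD and between 0.38 and 0.68 on control diet. Without the 12 livers of p110α hep-/- mice on HFD, over 36 livers, r was −0.88 for Slc16a3 and −0.75 for Tfrc. It was −0.37 for Apold1 and 0.24 for Irf7. That r keeps the differences between group means, so no r given here is free of both. Hamp2 had r = 0.79 with Hamp over all livers, 0.77 after the group means were removed and 0.33 over those 36.

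**Figure D5:**
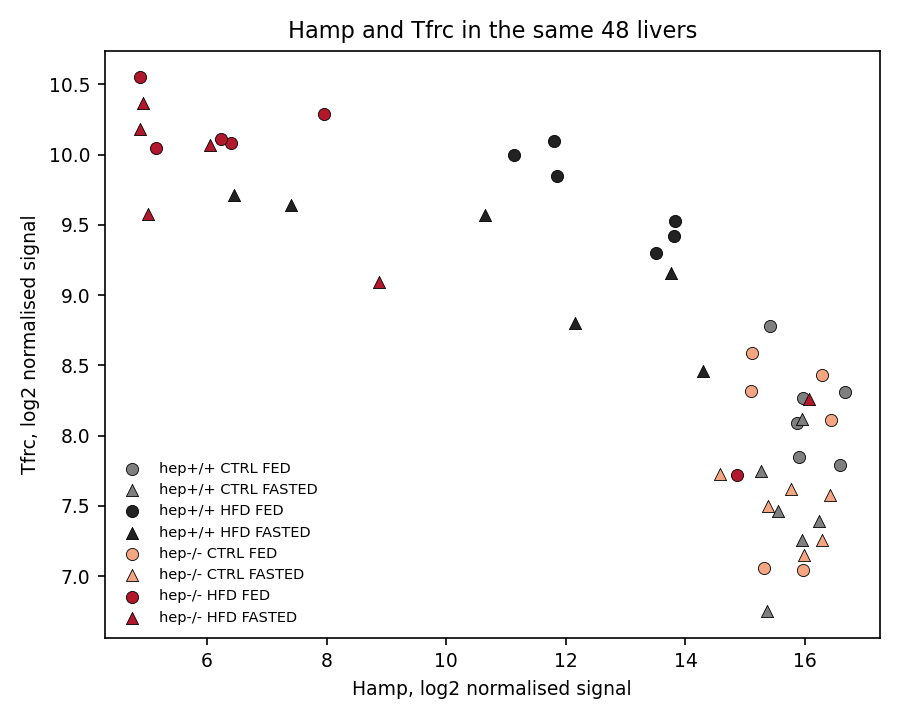
Hamp on the horizontal and Tfrc on the vertical axis, both log2 normalised signals, in the same 48 livers, coloured by group. Livers on control diet gather at high Hamp and low Tfrc, and the 2 p110α hep-/- livers on HFD with Hamp at 14.86 and 16.06 have Tfrc at 7.72 and 8.26, the lowest of their groups.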

How the data were processed

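Liver RNA from 48 male mice was hybridised to 48 one-colour Agilent 8x60K arrays. The labels number the replicates of a group, and these were taken as separate mice. The deposited scanner files, made by the authors with Agilent Feature Extraction 10.10.1.1, hold the signal intensity of each spot on a linear scale with flags for outliers and for signals well above background. The table of log2 values deposited by the authors was used only as an alternative. Here the log2 median signal was taken, control and outlier spots were left out, and spots of a probe were averaged. Probes had to exceed background clearly on 5 or more of the 6 arrays in some group, which left 30791 of 56605 probes. The washing batch was then removed and arrays were quantile normalised. Differences were tested with limma 3.58.1 in R 4.3.3, with 8 group means and array weights. p-values were adjusted by the Benjamini-Hochberg method over all 30791 probes. The test was tried on simulated data with known changes.

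The 9 members and the gene lists were chosen with earlier results of these data known. The text names the members, list genes that were among the 3 most risen or 3 most fallen in some comparison, also with their values in other comparisons, and the 5 genes most and least correlated with Hamp. Fth1, Ftl1 and Ncoa4 were added after their values were seen. Alternatives covered the signal, background, scaling, filter, batch, slide, weights, arrays fitted, probe choice, call rule and each left-out array. Leaving out the 2 arrays nearer to another group was chosen after seeing the data. Same-numbered arrays of different groups did not deviate together, and the fit did not pair them. The number of arrays limits the precision of these signals.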

Additional observations from a re-analysis of the deposited data

Results flagged for a closer look

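Each member was checked in each group for a single array far from the other 5 by Dixon's ratio. This picked out 12 of 72 sets of arrays, and chance picks out about 1 set in 20. The sets are not independent, since 1 array was counted for up to 5 genes, and the Hamp and Hamp2 values of p110α hep-/- mice on HFD are those the genes were chosen by, so the count is a description. Replicate 3 of fed p110α hep-/- mice on HFD was picked out for 5 genes, with the highest Hamp (14.86, next 7.95), Hamp2 (13.28, next 8.13), Id1 (9.01) and Smad7 (8.01) and the lowest Tfrc (7.72, next 10.05). Replicate 4 of fasted p110α hep-/- mice on HFD was picked out for Hamp (16.06, next 8.88) and Id1 (9.9). In fasted p110α hep+/+ mice, Hamp2 was low in replicate 1 on control diet (9.8) and in replicate 1 on HFD (6.51). Bmp6 was low in replicate 5 of fasted p110α hep-/- mice on control diet (6.85). In fed p110α hep+/+ mice on HFD, Smad7 was high in replicate 1 (7.92) and Tmprss6 low in replicate 2 (14.98).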

How the results depend on the processing

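Values below are the members called of 7 in a comparison unless said otherwise, and the cause of each change was not tested. Fits within a washing batch used only part of the arrays of each group. Leaving out each array in turn gave 1 to 2 for genotype in fasted mice on control diet, 1 to 3 in fed mice on control diet and 1 to 2 in fed mice on HFD. For fasting it gave 1 to 2 in p110α hep+/+ mice on either diet and 0 to 3 in p110α hep-/- mice on HFD. The interaction of genotype and fasting on control diet gave 0 to 1. The fall of Hamp with HFD in fed p110α hep+/+ mice ranged from −3.78 to −3.03. It lost its call with processed signals (−3.4), without a filter (−3.41), without array weights (−3.41) and within washing batch 1 (−3.33) and 2 (−3.19), and the fasted one did within batch 1 (−3.98).

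For genotype in fed mice on control diet, where 1 was called, the count was 3 with normexp, with probes above background on all arrays and without the 2 arrays nearer to another group, 2 with processed signals, with slide as a block and with the median over probes, and 0 within batch 1. In fed mice on HFD it was 2 with processed signals, median scaling, batch in the model, slide as a block, only the groups compared and the median over probes. In fasted mice on HFD it was 1 with processed signals, median scaling and the median over probes, and 0 within either batch. In fasted mice on control diet it was 0 with the median over probes and within batch 2. With a fold over 1.5 asked for, all 4 genotype counts were 0. Fasting gave 1 in p110α hep+/+ mice on either diet without a filter, without weights and within either batch, and on HFD with the median over probes. In p110α hep-/- mice on control diet it gave 2 with processed signals and within either batch, and on HFD 1 within batch 1 and 0 within batch 2. With a fold over 1.5 the fasting counts were 1 and 0 in p110α hep+/+ mice on control diet and HFD and 1 on each diet in p110α hep-/- mice. For HFD the counts were 1 in fasted p110α hep+/+ and 0 in fasted p110α hep-/- mice within batch 1, and 3 in fed p110α hep+/+ and 1 in fed p110α hep-/- mice within batch 2.

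Taking the replicate number as a replicate block changed 1 call, that of Bmp6 with fasting in p110α hep-/- mice on control diet (0.27, adjusted p = 0.0684). Over 168 pairs of same-numbered arrays the median correlation of deviations was 0.0116. As a description, the Hamp difference with fasting in p110α hep-/- mice on HFD was 4.56 in batch 1 and −2.35 in batch 2. Hamp near background sets a limit, since 5 of its 12 signals in p110α hep-/- mice on HFD are upper bounds.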
